A study of Mus musculus with 4 samples.

Results

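The 10 genes followed here are usually grouped as lipid-associated macrophage genes: Apoe, Trem2, Spp1, Gpnmb, Fabp5, Lpl, Cd36, Lgals3, Ctsd and Cd9. They were taken by gene symbol, and each symbol gave 1 row among the 55450 genes of the matrix, so all 10 were measured. Single cells were profiled on the 10x Genomics platform from flank tumours of female BALB/c mice aged 6 to 8 weeks, raised from 4T1, a breast carcinoma cell line of the mouse. On day 7 the mice were given PBS or TIOs into a vein, and whichever they had, their tumours were lit for 5 min with near-infrared light (NIR, 980 nm at 1.0 W/cm2) each day from day 8 to day 10. The tumours were taken on day 13. TIOs are cells of a mouse macrophage line that were loaded with drug-carrying upconversion nanoparticles and frozen in liquid nitrogen, so the injected agent is itself of macrophage origin. Of the 4 samples, the labels put 2 in the PBS group and 1 in the TIOs+NIR3 group, and 1 was left without a group because its title names PBS and its treatment record names TIOs. The cell barcodes carry 4 suffixes, here called libraries 1 to 4, and which suffix belongs to which sample could not be found in the labels or the methods. No treatment was therefore compared and no p-value was computed, and each library stands as a sample of unknown treatment. How many mice stand behind a library is likewise not stated in them.

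Lipid-associated macrophages are macrophages that take up and break down lipid, first described in fat tissue, and a similar gene programme is known from macrophages of plaques, injured brain and tumours. Apoe encodes the lipoprotein that carries cholesterol out of the cell, and Trem2 encodes a surface receptor that binds lipids and lipoproteins and signals through the adaptor Tyrobp. Lpl releases fatty acids from triglycerides, Cd36 is a scavenger receptor that takes fatty acids up, and Fabp5 binds them inside the cell. Ctsd is a protease of the lysosome and Gpnmb a glycoprotein of lysosomes and the cell surface. Spp1 (osteopontin) is a secreted matrix protein that binds integrins and Cd44, Lgals3 is a galectin, and Cd9 is a tetraspanin of the cell membrane.

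All 10 are protein-coding genes, and their identifiers match the GENCODE vM21 annotation of GRCm38. Apoe lies at chr7:19696109-19699188 on the minus strand, Trem2 at chr17:48346401-48354147 on the plus strand and Spp1 at chr5:104435118-104441050 on the plus strand. Gpnmb lies at chr6:49036546-49070929 and Fabp5 at chr3:10012548-10016607, both on the plus strand. Lpl lies at chr8:68880491-68907448 on the plus strand and Cd36 at chr5:17781690-17888801 on the minus strand. Lgals3 lies at chr14:47367751-47386160 on the plus strand, and Ctsd (chr7:142375911-142388038) and Cd9 (chr6:125460266-125494791) on the minus strand. The level of Fabp5 is uncertain where the counting could have split its reads, because the related gene Gm6166 shares 7.24% of the 31-base words of the Fabp5 transcripts; Gm6166 held 4027 UMIs (unique molecular identifiers, 1 per captured mRNA molecule) beside 248320 for Fabp5. Spp1 overlaps Gm42793 on its own strand (263 UMIs beside 863830), which shares 14.3% of the 31-base words of Spp1, and Ctsd overlaps Gm49369 (0 UMIs), which shares 33.2% of those of Ctsd. The levels of Spp1 and Ctsd are uncertain in the same way.

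Promoter sequences are shown for Apoe and Trem2, whose levels followed each other most closely among the 10 genes, and for Spp1, whose level followed a different order of cell types. Each runs 5′ to 3′ over the 250 bases before a RefSeq transcript start (GRCm38.p6), and capitals mark the letters of a motif searched in it.
Apoe (chr7:19699189-19699438, minus strand): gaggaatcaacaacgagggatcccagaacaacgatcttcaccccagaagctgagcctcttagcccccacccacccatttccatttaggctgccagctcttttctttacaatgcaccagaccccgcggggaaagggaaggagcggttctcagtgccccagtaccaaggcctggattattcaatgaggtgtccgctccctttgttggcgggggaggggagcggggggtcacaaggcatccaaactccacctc
Trem2 (chr17:48346151-48346400, plus strand): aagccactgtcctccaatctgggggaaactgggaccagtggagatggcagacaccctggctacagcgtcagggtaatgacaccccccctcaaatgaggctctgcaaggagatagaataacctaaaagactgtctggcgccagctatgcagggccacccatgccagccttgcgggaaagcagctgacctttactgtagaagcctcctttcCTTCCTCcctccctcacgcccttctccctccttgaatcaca
Spp1 (chr5:104434861-104435110, plus strand): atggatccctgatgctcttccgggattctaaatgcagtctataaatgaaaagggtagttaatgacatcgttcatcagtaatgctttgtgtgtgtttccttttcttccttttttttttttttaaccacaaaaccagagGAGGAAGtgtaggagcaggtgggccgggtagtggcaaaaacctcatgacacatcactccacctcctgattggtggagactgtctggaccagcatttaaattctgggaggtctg

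Of the 10 genes, 8 (all but Fabp5 and Lpl) had promoters in the RefSeq table, in 11 windows of 300 bases (250 before and 50 after a start). The motifs searched on both strands were CACGTG and CATGTG, the E-boxes read by the lysosomal MiT/TFE factors, TGACTCA, the AP-1 site, and GAGGAAG, a site of the PU.1 kind. They occurred in 7.15%, 14.2%, 5.20% and 13.6% of the 32851 windows of the table, and no matches in the 10 genes overlapped each other. Positions are counted from the RefSeq starts, which can differ from the ends of the gene spans given above. Ctsd held CACGTG at -245 and -98 from its start, the latter inside its gene span. Trem2 (at -41, on the opposite strand) and Spp1 (at -113) held GAGGAAG. Gpnmb held TGACTCA at 9 bases from its start, and Cd9 held CATGTG on the opposite strand at -38. The windows of Apoe, Cd36 and Lgals3 held none of these letters. The matches are a description of the letters in these windows. The sites of the lysosomal and membrane genes, with the motif in capitals as read on the strand of the gene, were as follows.
Ctsd, distal site (chr7:142388055-142388077): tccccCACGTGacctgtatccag
Ctsd, proximal site (chr7:142387908-142387937): tcgcccgcgtctCACGTGacccgttgaggg
Gpnmb (chr6:49036514-49036543): gccaggggcaagTGACTCAtgagcacgagt
Cd9 (chr6:125494781-125494810): ggcatccctccgCACATGcgcatagcagct

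Of 33064 barcodes, 32133 had at least 300 genes and at most 15% mitochondrial UMIs, with 69255999 to 108646352 UMIs per library. A score of fixed marker genes, none of which is among the 10 genes, gated 26892 of them to 14 classes. The gate held 3559 macrophages and 3910 monocytes, and a further 1534 cells whose macrophage and monocyte scores lay within 1.5 times of each other were kept apart as intermediate cells. It is a range on a score rather than a type: 649 of the macrophages and 708 of the monocytes led the next class by less than 2-fold. In the macrophages the median macrophage score was 0.203 and the median monocyte score 0.0331, and in the monocytes these were 0.0602 and 0.258. Of 89 marker genes, 84 were highest in their own class. The methods describe a sort for the leucocyte protein CD45, yet 4244 tumour cells and 3560 fibroblasts were gated, and 3981 of the tumour cells were in library 1. The libraries shared 95 of the kept barcode sequences, which 16 macrophages carried.

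The unit of level is CPM: the summed UMIs of the gene in a class and library, divided by all UMIs of those cells and multiplied by 1000000, and intervals are exact 95% intervals of counting error only. The macrophages were the class with the highest level for 4 of the 10 genes when the libraries were pooled: Apoe, Trem2, Gpnmb and Ctsd. Among all genes with at least 10 CPM in some class, 2.88% were highest in macrophages. By library the count was 2, 5, 7 and 8 of 10 in libraries 1 to 4, with no share of all genes taken for each library. These counts cannot be set against each other, because classes under 20 cells were not ranked. Keratinocyte-like cells (15, 16 and 5 cells) were left out in libraries 2 to 4, and tumour cells (1 and 5 cells) in libraries 3 and 4. Only Apoe and Trem2 were highest in macrophages in each of the 4 libraries, where 1.17% of all genes were. The name of the set thus held for a part of it in these tumours. Pooled, Spp1 was highest in tumour cells, Lpl in fibroblasts, Cd36 in endothelial cells, Fabp5 in keratinocyte-like cells, Lgals3 in monocytes and Cd9 in neutrophils. Only Lpl and Cd9 of these kept that class in each library. Tumour cells led Spp1 in neither library 1 nor library 2, where they were ranked. Macrophages led Cd36 in libraries 3 and 4, Lgals3 in library 4, and Fabp5 in libraries 2 to 4, where keratinocyte-like cells were not ranked.

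**Figure D1:**
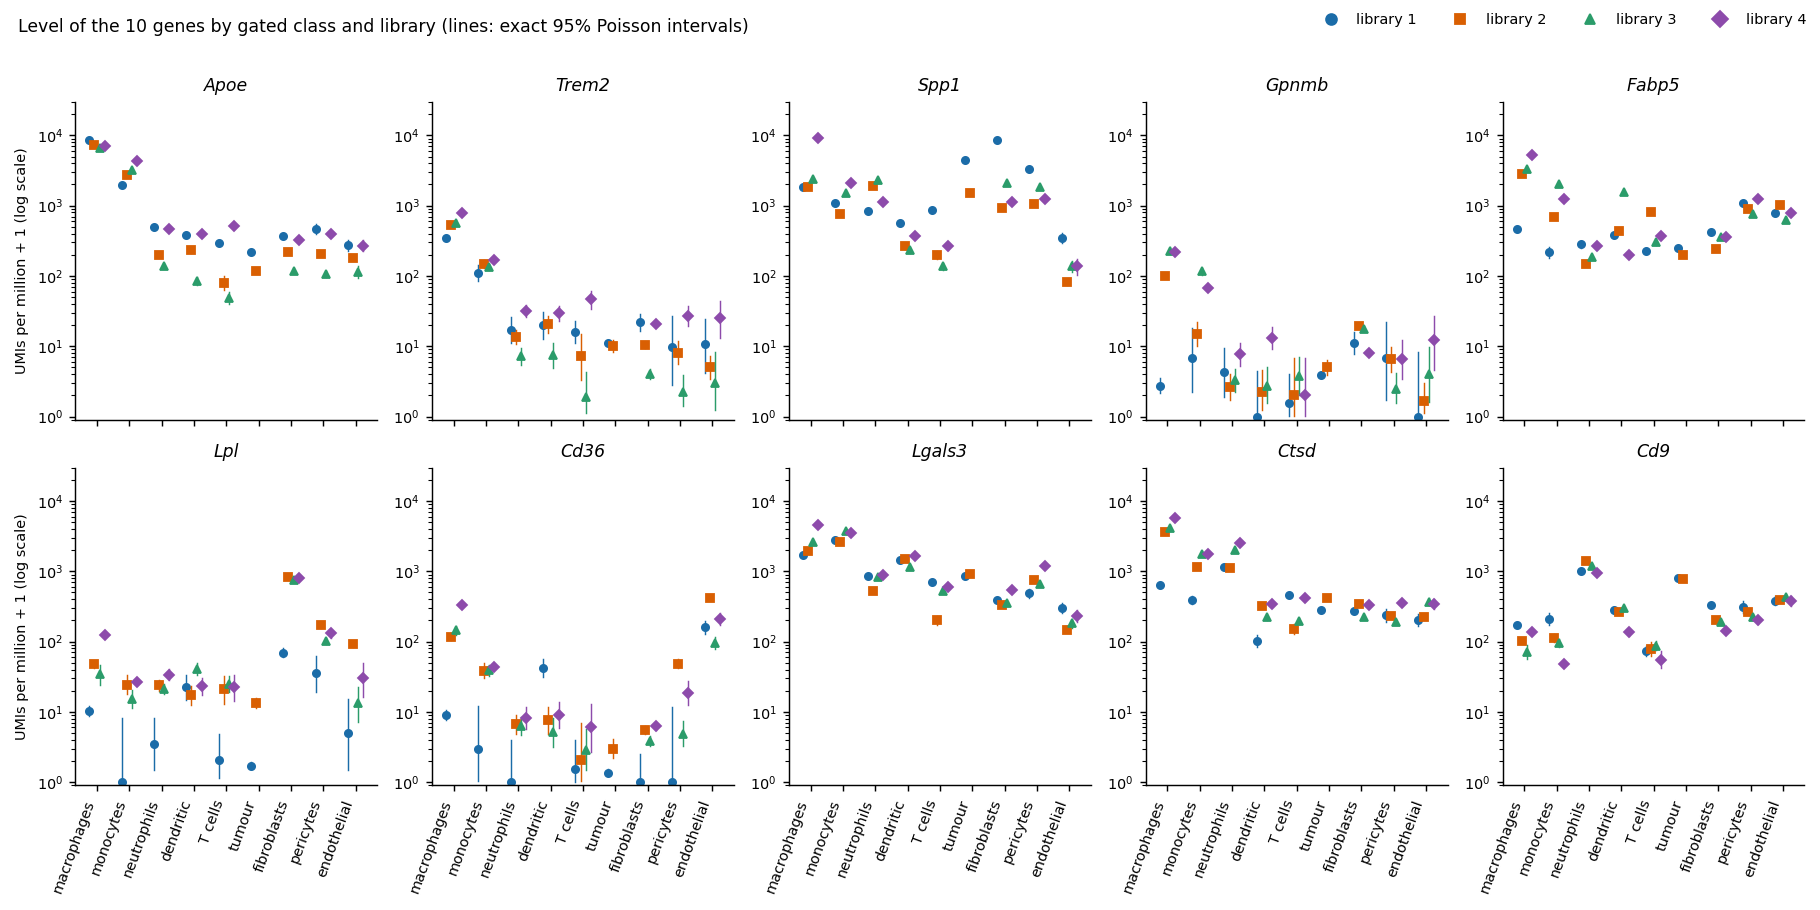
Level of each of the 10 genes (CPM plus 1, log scale) in 9 gated classes, with a point for each library and a vertical line for the exact 95% Poisson interval. Apoe and Trem2 peak in the macrophages of every library, Lpl peaks in fibroblasts and Cd9 in neutrophils, while the Gpnmb, Fabp5, Cd36 and Ctsd points of library 1 lie below those of the other libraries in macrophages.

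Apoe was the most abundant of the 10 genes in macrophages of libraries 1 to 3. It stood at 8668, 7371, 6567 and 6988 CPM in the macrophages of libraries 1 to 4 and at 1949, 2719, 3164 and 4388 CPM in the monocytes. The 4 macrophage values lay above all 4 monocyte values. Macrophages held 45.2% of all Apoe UMIs of the kept cells, monocytes 26.0% and intermediate cells 12.6%. Neutrophils (492, 196, 139 and 465 CPM), fibroblasts (368, 217, 116 and 320.3 CPM) and tumour cells (219 and 116 CPM in libraries 1 and 2) were far lower. T cells, which do not make the lipoprotein as part of their known function, held 297, 78.1, 47.6 and 509 CPM, so a level of this order in any class cannot be told apart from free RNA in the droplets. At an equal depth of 1000 UMIs per cell, 94.5%, 87.5%, 88.6% and 93.7% of macrophages held an Apoe UMI, against 24.2%, 12.8%, 5.71% and 24.7% of T cells. Unthinned, the shares were 98.5%, 93.6%, 92.7% and 99.3% against 67.1%, 41.7%, 18.8% and 72.5%, at median depths of 9927, 4665, 3749.5 and 7527 UMIs in macrophages and 3981, 5634, 3213 and 4661 in T cells.

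Trem2 showed the same order of cell types at a lower level. The macrophages held 350.3 CPM (340.6 to 360.1), 524 CPM (507 to 541), 573 CPM (528 to 619) and 793 CPM (770.2 to 815) in libraries 1 to 4, with intervals that did not overlap except between libraries 2 and 3. The monocytes held 109.9, 148, 134 and 167 CPM and the intermediate cells 264, 350.1, 365 and 585 CPM. In each library the intermediate cells lay between the other 2 groups. Macrophages held 48.8% of all Trem2 UMIs, the largest share that macrophages took of any of the 10 genes. T cells held 15.1, 6.34, 0.924 and 45.3 CPM, and neutrophils 16.3, 12.7, 6.18 and 31.1 CPM. At 1000 UMIs per cell a Trem2 UMI was found in 27.6%, 32.9%, 35.3% and 46.4% of macrophages, and in 0.266%, 2.13%, 0.220% and 4.22% of T cells. Unthinned, these shares were 76.2%, 66.1%, 62.8% and 84.3% against 5.66%, 5.21%, 0.418% and 14.04%.

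The genes of fatty acid handling split between cell types. Lpl, the lipase, was a fibroblast gene in these tumours: fibroblasts held 68.6, 817, 745 and 805 CPM in libraries 1 to 4 and 90.1% of all Lpl UMIs. Its macrophage level was 9.24 CPM (7.73 to 11.0), 46.3 CPM (41.4 to 51.7), 33.2 CPM (23.2 to 46.0) and 124 CPM (115 to 133). The T cells of libraries 2 to 4 held 20.1, 24.0 and 21.6 CPM and the neutrophils 22.9, 20.2 and 32.9 CPM, and the macrophages of libraries 2 and 3 stood only 2.03- and 1.65-fold above the neutrophils. Library 4 was the only library in which macrophage Lpl passed 100 CPM. Summed fibroblast markers in macrophages stood at 101, 1742, 759 and 834 CPM in libraries 1 to 4, and their part in the Lpl values was not tested.

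Cd36, the fatty acid receptor, was highest in endothelial cells or in macrophages in each library. Endothelial cells, where it is a known marker of small vessels, held 159, 409.7, 95.5 and 209 CPM, and macrophages 7.98, 114, 143 and 333 CPM. Endothelial cells were higher than macrophages in libraries 1 and 2 and lower in libraries 3 and 4, and the intervals did not overlap in any of the 4. T cells, fibroblasts and neutrophils held at most 7.31 CPM in any library. Monocytes held 1.96, 37.6, 38.2 and 42.7 CPM in libraries 1 to 4. The dendritic cells of library 1, at 41.7 CPM, stood above its macrophages. At 1000 UMIs per cell, 0.838%, 8.66%, 8.46% and 17.1% of macrophages held a Cd36 UMI and 0 of 376, 94, 455 and 166 T cells did, for which the exact intervals reach 0.976%, 3.85%, 0.807% and 2.20%. Unthinned, the macrophage shares were 6.40%, 20.2%, 21.8% and 49.4%.

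Fabp5, the fatty acid chaperone, stood at 467, 2835, 3289 and 5299 CPM in the macrophages of libraries 1 to 4. The monocytes held 216, 694, 2038 and 1231 CPM and the T cells 229, 816, 300.4 and 371 CPM. The macrophages of library 1 thus lay within about 2-fold of its T cells, while those of the other libraries were far above. The keratinocyte-like cells of library 1, a class that makes much of this protein in skin, held 15847 CPM, the highest level of the 10 genes in any class, yet only 6.35% of all Fabp5 UMIs. Macrophages held 24.8%, monocytes 15.8% and fibroblasts 14.02% of the Fabp5 UMIs.

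Ctsd and Gpnmb, the lysosomal pair, were both far lower in the macrophages of library 1 than in those of the other libraries. Ctsd, the cathepsin, stood at 634, 3602, 4141 and 5819 CPM in macrophages and at 389, 1159, 1787 and 1773 CPM in monocytes. Neutrophils held 1140.0, 1102, 2016 and 2520.0 CPM and were the highest class in library 1. T cells held 461, 152, 198 and 418 CPM, and the NK cells of library 1 held 592 CPM, close to the 634 CPM of its macrophages. Gpnmb was highest in the macrophages of libraries 2 to 4 and scarce in every class of library 1. Macrophages held 1.75 CPM (1.13 to 2.58), 99.8 CPM (92.4 to 107), 229 CPM (201 to 259) and 215 CPM (203 to 227), and monocytes 5.89, 14.1, 116 and 67.3 CPM. The library 1 value rests on 25 UMIs among 1421 macrophages. T cells held 0.540, 1.06, 2.77 and 1.03 CPM. At 1000 UMIs per cell, 0.228%, 4.87%, 9.95% and 11.9% of macrophages held a Gpnmb UMI, against 1.196%, 10.6%, 17.9% and 27.7% unthinned.

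Spp1 was a gene of many cell types, and its leading type changed from library to library. Macrophages held 1841, 1827, 2406 and 9032 CPM, tumour cells 4480.2 and 1519 CPM (libraries 1 and 2), fibroblasts 8728, 909.9, 2070.4 and 1116 CPM and neutrophils 828, 1885, 2353 and 1108 CPM. Fibroblasts led in library 1 and macrophages in library 4, while macrophages and neutrophils had overlapping intervals in libraries 2 and 3. Of the 863830 Spp1 UMIs, tumour cells held 42.9%, fibroblasts 18.8% and macrophages 11.1%. In library 1 the NK cells held 1945 CPM, above the 1841 CPM of the macrophages. Its T cells held 858 CPM and its endothelial cells, the lowest class, 347 CPM. The part of free RNA in that macrophage value was not tested. In libraries 2 to 4 the T cells held 199, 137 and 261 CPM. At 1000 UMIs per cell, 60.0%, 38.0%, 47.3% and 74.4% of macrophages and 46.0%, 6.38%, 11.9% and 20.5% of T cells held an Spp1 UMI. Unthinned, these shares were 93.5%, 61.4%, 68.4% and 89.1% against 83.8%, 34.4%, 35.7% and 66.1%.

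Lgals3, the galectin, was higher in monocytes than in macrophages in libraries 1 to 3. Monocytes held 2772, 2593, 3712 and 3484 CPM and macrophages 1695, 1939, 2595 and 4498 CPM. The order turned in library 4, and the intervals were apart in all 4 libraries. Tumour cells held 862 and 909 CPM and took 19.2% of all Lgals3 UMIs, and dendritic cells held 1451, 1480.0, 1138 and 1641 CPM. T cells held 711, 199.6, 521 and 593 CPM.

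Cd9, the tetraspanin, was not a macrophage gene in these tumours. Neutrophils held 1026, 1397, 1179 and 941 CPM, tumour cells 807 and 771 CPM, endothelial cells 381, 388, 435 and 379.7 CPM, and macrophages 174, 102, 71.0 and 136 CPM. In each library the macrophages ranked between place 5 and place 9 of the 9 to 11 classes with at least 20 cells. Tumour cells held 52.0% of all Cd9 UMIs, and neutrophils 14.1%. T cells, at 72.4, 78.1, 86.4 and 54.5 CPM, were lower than the macrophages in libraries 1, 2 and 4 and higher in library 3.

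Against monocytes, the cells from which many tumour macrophages arise, Trem2 and Cd36 were at least 2-fold higher in the macrophages of each of the 4 libraries. Among all 7935 genes with at least 10 CPM in either class, 1.75% met this rule. None of the 10 genes was at least 2-fold lower in each library, where 1.49% of all genes were. Trem2 was higher by 3.19-fold (2.45 to 4.22), 3.54-fold (3.12 to 4.04), 4.26-fold (3.75 to 4.85) and 4.74-fold (4.55 to 4.94) in libraries 1 to 4. Cd36 was higher by 3.03-fold (2.34 to 3.97), 3.74-fold (2.91 to 4.81) and 7.80-fold (7.25 to 8.40) in libraries 2 to 4, while its ratio of 4.07 in library 1 (0.715 to 162) rests on 1 UMI in monocytes. With 10 CPM added to both sides the count was 1 (Trem2), where 0.466% of all genes met the rule. Without library 1 it was 3, since Ctsd joined at 3.11-, 2.32- and 3.28-fold, and 3.19% of all genes met it.

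Apoe missed the 2-fold rule against monocytes only in library 4. Its ratio was 4.45 (4.18 to 4.74), 2.71 (2.63 to 2.79), 2.08 (2.01 to 2.14) and 1.59 (1.57 to 1.61) in libraries 1 to 4. The macrophage level differed little between these libraries, and the monocyte level was 1949 CPM in library 1 and 4388 CPM in library 4. Gpnmb had ratios of 0.297, 7.08, 1.98 and 3.20, Fabp5 of 2.16, 4.08, 1.61 and 4.30, and Spp1 of 1.69, 2.39, 1.59 and 4.36. With a limit of 1.5 in place of 2, the count was 7 of 10 beside 5.37% of all genes, and Gpnmb, Lgals3 and Cd9 were the genes that missed it. Lpl was among the 7 only through the floor in library 1, where its ratio of 1.57 sets 132 UMIs in macrophages against 0 in monocytes, counted as 3. The median over the 10 genes of the log2 ratio of macrophages to monocytes was 1.29, and that over all genes tested was 0.11.

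Against neutrophils, Apoe, Trem2 and Cd36 were at least 2-fold higher in the macrophages of each library, a rule that 31.1% of all genes met, so 3 of 10 is a share near the background. Cd9 was at least 2-fold lower in each library, as were 7.58% of all genes: its ratio was 0.170, 0.0727, 0.0602 and 0.145. Trem2 was higher by 21.5-, 41.3-, 92.7- and 25.5-fold, and Apoe by 17.6-, 37.6-, 47.2- and 15.0-fold. The Cd36 ratio of library 1, 3.27, rests on 0 UMIs in neutrophils, counted as 3. Without library 1 the count was 7, beside 39.7% of all genes, because Gpnmb (62.0-, 101- and 32.1-fold), Fabp5 (19.1-, 18.0- and 20.2-fold), Lgals3 (3.72-, 3.11- and 5.01-fold) and Ctsd (3.27-, 2.05- and 2.31-fold) then met the rule.

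Tumour cells could be compared in libraries 1 and 2 only, which held 3981 and 257 of them. Apoe, Trem2, Lpl, Cd36 and Ctsd were at least 2-fold higher in macrophages in both, against 14.7% of all genes. Cd9 was lower in both, at 0.216 and 0.132 times the tumour level, as were 16% of all genes. Apoe was higher than in tumour cells by 39.6- and 63.4-fold and Trem2 by 34.4- and 57.7-fold. With library 2 alone the count was 8, since Fabp5, Gpnmb and Lgals3 joined, and 21.2% of all genes met the rule. With 10 CPM added to both sides it was 3 (Apoe, Trem2 and Ctsd), beside 8.97% of all genes.

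Against fibroblasts, Apoe, Trem2, Cd36, Lgals3 and Ctsd were at least 2-fold higher in macrophages in each library, and 9.96% of all genes were. Lpl was lower in each library, at 0.135, 0.0567, 0.0446 and 0.154 times the fibroblast level, a rule met by 14.9% of all genes. Lgals3 was higher by 4.41-, 5.87-, 7.39- and 8.27-fold and Ctsd by 2.33-, 10.6-, 18.4- and 17.5-fold. The Cd36 ratio of library 1, 6.48, rests on 0 UMIs in fibroblasts, counted as 3. Spp1 went from 0.211 times the fibroblast level in library 1 to 8.09 times in library 4. The median log2 ratio of the 10 genes was 2.99 against neutrophils, 2.26 against tumour cells and 3.24 against fibroblasts, and over all genes tested it was 0.95, -0.23 and -0.14.

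The intermediate cells were gated on close macrophage and monocyte scores, so levels between those of the 2 classes can come from the gate itself. Doublets were not called, and whether these cells are a step from monocyte to macrophage was not tested. For Apoe, Trem2, Cd36 and Ctsd the intermediate level lay between the monocyte and the macrophage level in libraries 2 to 4. Ctsd stood at 1159, 2163 and 3602 CPM in the monocytes, intermediate cells and macrophages of library 2, and at 1773, 4039 and 5819 CPM in those of library 4. Cd36 stood at 42.7, 158 and 333 CPM in library 4. In library 1, which held 52 intermediate cells, Ctsd (668 CPM) and Spp1 (3532 CPM) were higher in the intermediate cells than in its macrophages (634 and 1841 CPM). Cd9 had no common direction: it was 210.0 CPM in monocytes and 174 CPM in macrophages of library 1, and 47.2 and 136 CPM in library 4.

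**Figure D2:**
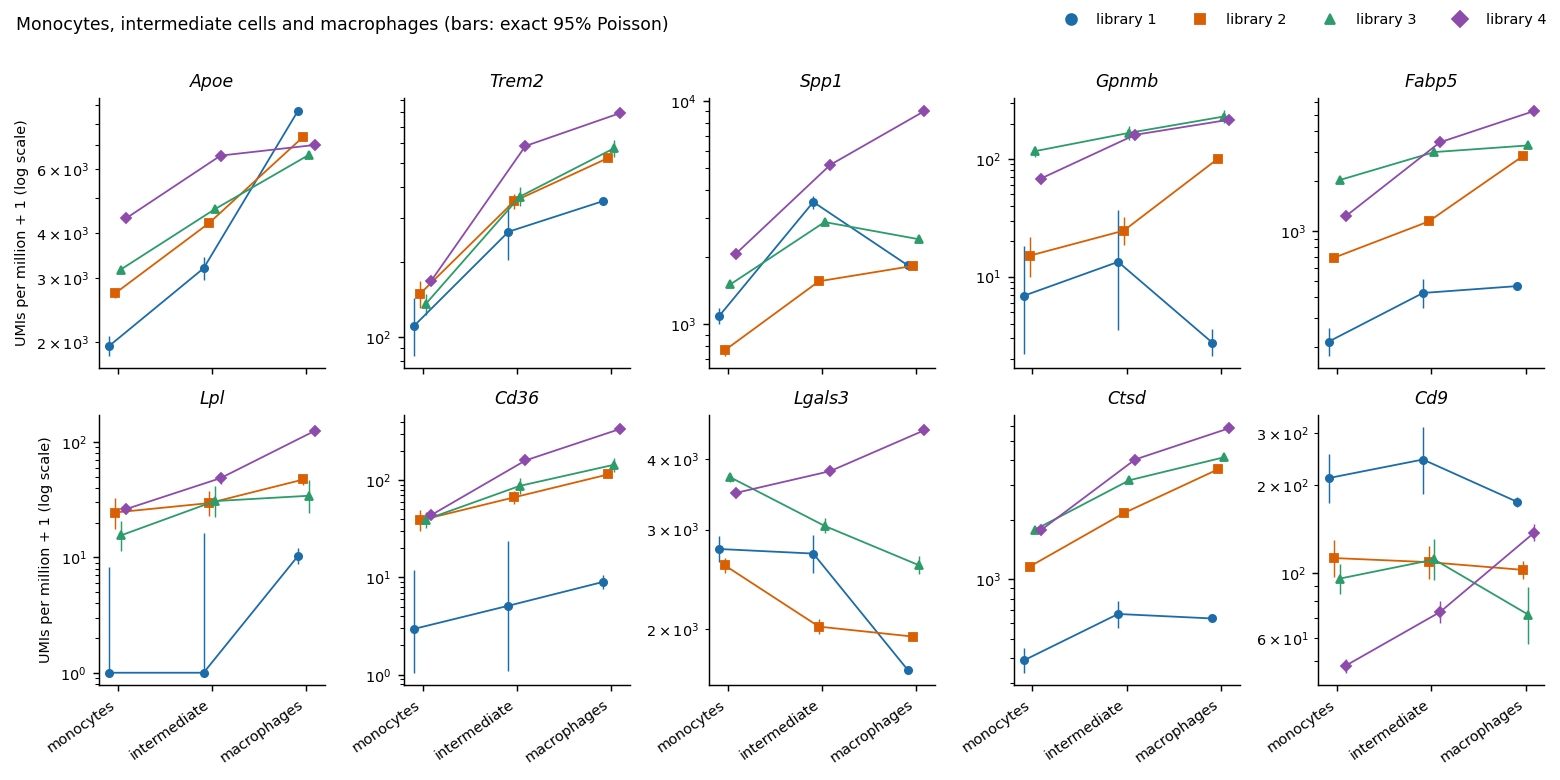
Level of each gene (CPM plus 1, log scale) in monocytes, intermediate cells and macrophages, with a line for each library and bars for exact 95% Poisson intervals. In all 4 libraries Trem2 is higher in intermediate cells than in monocytes and higher again in macrophages, and Apoe likewise. Lgals3 is lower in macrophages than in monocytes in libraries 1 to 3.

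The macrophages of library 1 stood apart from the others in their state as well as in these genes. They held 4768 CPM of H2-Ab1, an MHC class II gene, against 306, 255 and 119.9 CPM in libraries 2 to 4. They held 6.58 CPM of the scavenger receptor Cd163 against 518, 397 and 298 CPM, and 332 CPM of the arginase Arg1 against 2189, 2253 and 1728 CPM. Of the 10 genes, Gpnmb, Fabp5, Lpl, Cd36, Ctsd, Trem2 and Lgals3 were lowest in the macrophages of library 1, while Apoe and Cd9 were highest there. The summed tumour-cell markers in macrophages were 518 CPM in library 1 and 36.1, 0 and 2.16 CPM in the others, and in T cells 607, 79.2, 13.4 and 7.20 CPM. Library 1 also had the deepest kept cells, with a median of 11698 UMIs against 2641.5, 2695 and 7182. The part of depth, of cell makeup and of free RNA in these differences was not tested, and the treatment of each library is unknown.

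Splitting the macrophages by state at an equal depth of 2000 UMIs per cell showed which states carried which genes. The splits, set after the levels were seen, were Cd163-positive cells, Arg1-positive cells without Cd163, and the remaining cells with high (3 or more UMIs) or low H2-Ab1. Spp1 was lower in Cd163-positive than in Arg1-positive macrophages of the same library, at 354 against 2956 CPM in library 2, 755 against 3665 CPM in library 3 and 2926 against 10233 CPM in library 4. Lgals3 showed the same order, with 913 against 3044, 1047 against 3030.5 and 1859 against 5125 CPM. Gpnmb was at 19.6, 28.3 and 32.4 CPM in the Cd163-positive cells of libraries 2 to 4, and at 98.0, 262 and 187 CPM in the Arg1-positive cells. The remaining cells with low H2-Ab1 held 192, 140 and 317 CPM of Gpnmb. They thus stood above the Arg1-positive cells in libraries 2 and 4, and below them in library 3 with overlapping intervals. In library 1, Gpnmb was at 3.80 CPM in the Arg1-positive cells, below the Arg1-positive cells of every other library.

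Apoe did not follow this split, and Ctsd followed it in direction, with smaller differences than those of Spp1 and Lgals3. Apoe stood at 7809, 4915 and 6959 CPM in the Cd163-positive and at 5103, 7189 and 6938 CPM in the Arg1-positive cells of libraries 2 to 4. Ctsd stood at 3235, 3009 and 4791 CPM in the former against 3672, 4537 and 5394 CPM in the latter, with intervals that did not overlap in any of the 3. The Trem2 values were 337, 377 and 579 CPM in Cd163-positive cells and 536, 543 and 763 CPM in Arg1-positive cells, and 643, 800.0 and 825 CPM in the cells low in all 3 state genes. The Trem2 intervals of those last cells overlapped those of the Arg1-positive cells in each of libraries 2 to 4. The cells low in all 3 state genes held the highest Fabp5 of the states in libraries 3 and 4, at 4340.0 CPM (25 cells) and 7172 CPM (186 cells). In library 3 their interval (3782 to 4957 CPM) overlapped that of the Arg1-positive cells (3676 to 4293 CPM). In library 1 most macrophages (860 cells) were in the H2-Ab1-high group, which held 9327 CPM of Apoe and 348 CPM of Trem2 but 0.581 CPM of Gpnmb and 476 CPM of Ctsd.

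**Figure D3:**
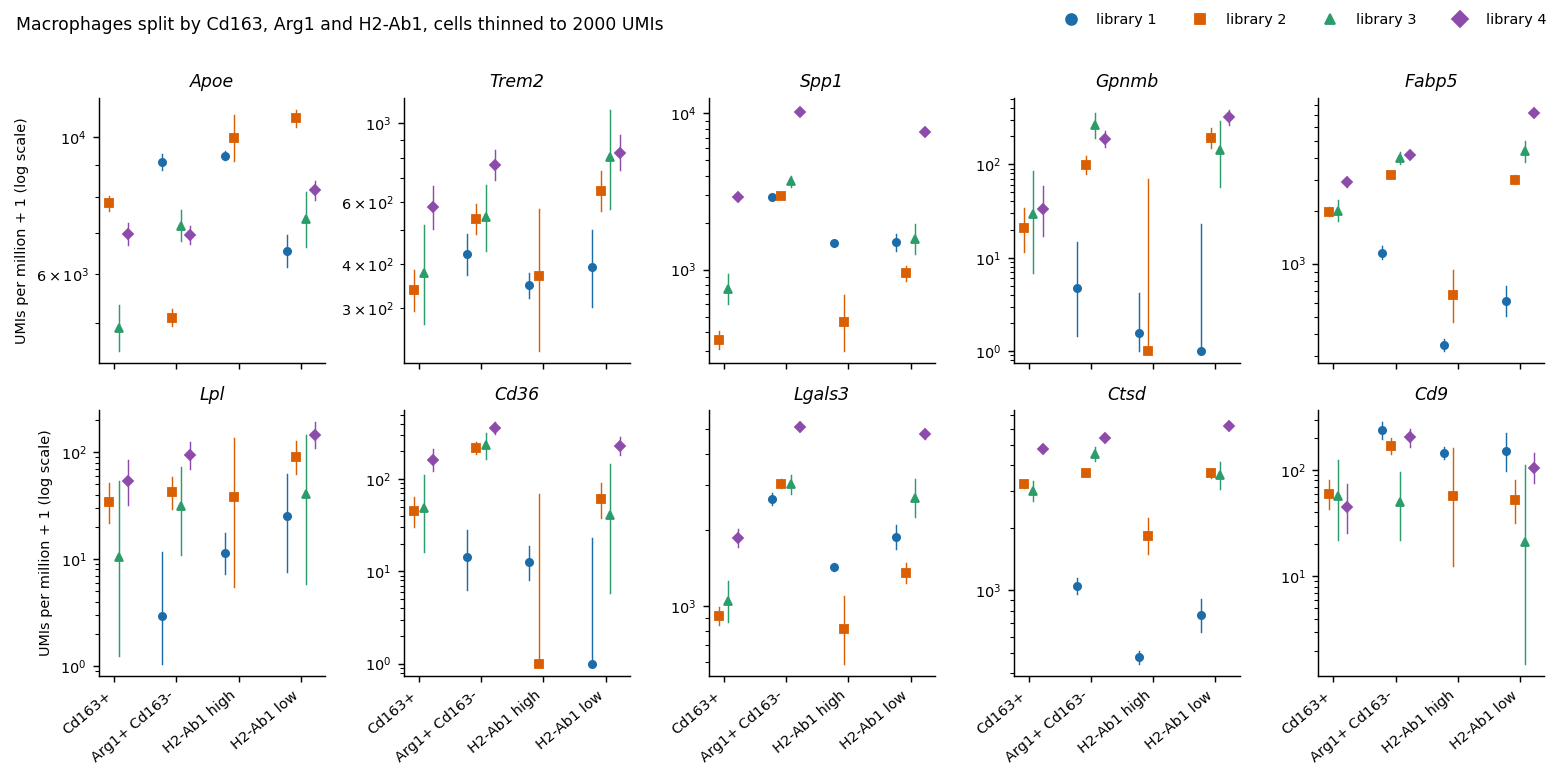
Level of each gene (CPM plus 1, log scale) in macrophages thinned to 2000 UMIs and split by Cd163, Arg1 and H2-Ab1, with a point for each library that has at least 20 cells of the state and a line for the exact 95% Poisson interval. Spp1, Gpnmb and Lgals3 are lower in Cd163-positive than in Arg1-positive cells of libraries 2 to 4, and Apoe shows no common order.

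Within macrophages, cells with a Trem2 UMI were compared with cells without one at 2000 UMIs per cell. Of the 1218, 942, 163 and 626 macrophages deep enough, 48.9%, 53.3%, 55.2% and 71.1% held a Trem2 UMI in libraries 1 to 4. Apoe and Ctsd were at least 1.2 times higher in the Trem2-positive cells of each library, 2 of the 9 other genes, and 0.453% of all 7721 genes met that rule. A gene with too few UMIs for a ratio in a library could not meet it. The share was not matched for level, and Apoe and Ctsd are abundant genes. Apoe was higher by 1.35-, 1.30-, 1.99- and 1.30-fold and Ctsd by 1.5003-, 1.49-, 1.51- and 1.203-fold. Fabp5 missed the rule in library 3 alone, with 1.51-, 1.43-, 1.17- and 1.49-fold. Gpnmb was higher by 4.58-, 2.05- and 1.92-fold in libraries 2 to 4, and too few UMIs remained in library 1 for a ratio. Without library 1, 4 genes met the rule (Apoe, Gpnmb, Lpl and Ctsd), beside 1.76% of all genes. At 4000 UMIs per cell, where library 3 had too few cells, 4 did (Apoe, Spp1, Fabp5 and Ctsd), beside 2.04%. With a smallest gate score of 0.1, an alternative added after seeing the data, 1 did (Apoe), beside 0.481%. With a limit of 1.5 none of the 9 did, beside 0.0389%. Cd163 was higher in the Trem2-positive macrophages of library 1 (2.20-fold) and lower in those of libraries 2 to 4 (0.550-, 0.786- and 0.595-fold). The library 1 ratio rests on only 19 against 9 UMIs and that of library 3 on 62 against 64. No interval was computed for these ratios, so a change of direction between libraries cannot be read from them. Cells without a Trem2 UMI at this depth include cells that express it.

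**Figure D4:**
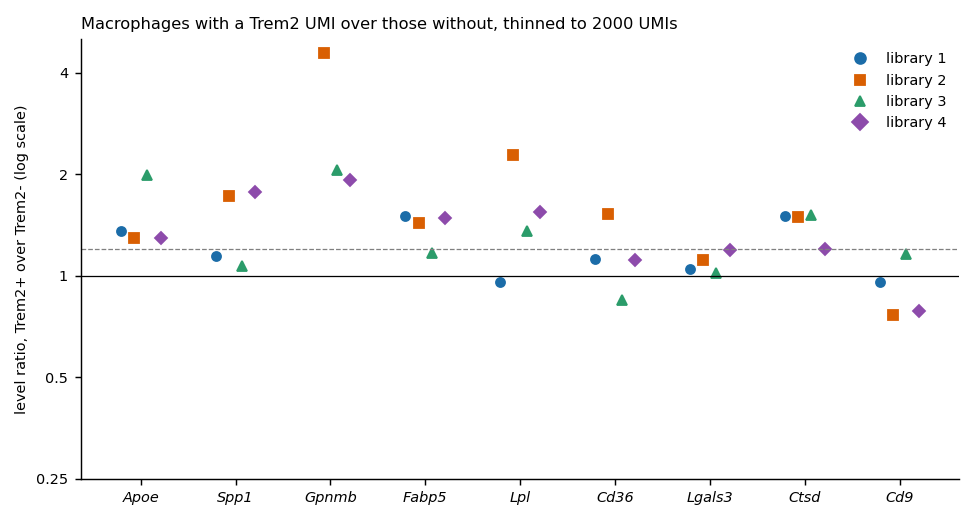
Ratio of the level of each of the other 9 genes in macrophages with a Trem2 UMI to that in macrophages without one (log scale, cells thinned to 2000 UMIs), with a point for each library. Gpnmb has no point for library 1, where too few UMIs remained for a ratio. The solid line marks equal levels and the dashed line the 1.2-fold limit, which only Apoe and Ctsd pass in all 4 libraries.

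Co-detection of pairs in single macrophages was set against the product of the 2 shares. Of the 45 pairs, only Gpnmb and Fabp5 reached 1.2 times that product in each of the 4 libraries. Their ratio was 2.83, 1.48, 1.28 and 1.25, on 3, 69, 21 and 107 cells with both. No share over all pairs of genes was computed, so the count of 1 pair has no background to be read against. A gene found in nearly every cell cannot reach 1.2 with any partner. In library 4, Apoe, Lgals3 and Ctsd were found in 611, 597 and 622 of 626 macrophages. For pairs with any of these 3 genes, the rule could therefore not be met. Spp1, found in 518 of the 626 macrophages of library 4, left its pairs little room above 1.2. Trem2 with Gpnmb ranged from 1.15 to 1.54, and Spp1 with Gpnmb from 1.17 to 1.86. The count was 0 at 4000 UMIs per cell and 0 with a limit of 1.5, 2 at 1000 UMIs or without library 2, and 3 without library 4.

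In libraries 2 to 4, single macrophages held more of the 10 genes than single monocytes, neutrophils or T cells did. The number of the 10 genes detected in a macrophage at 2000 UMIs had a median of 4, 5, 5 and 6 in libraries 1 to 4, against 4 in the monocytes of each library and 3, 2, 1 and 2 in T cells. The intermediate cells had medians of 4, 4, 5 and 6, below the macrophages in library 2 alone. No such count was made for other genes, so these numbers and the shares below have no background to be read against. Macrophages with 7 or more of the 10 genes, a number chosen after the levels were seen, made up 2.71%, 12.5%, 16.0% and 35.3% of the macrophages. The share was 1.05%, 1.92%, 5.90% and 4.87% in monocytes and 0% (0 of 42 cells, with an interval up to 8.41%), 3.55%, 16.7% and 21.8% in intermediate cells. Neutrophils (0.488%, 0.0968%, 0.0759% and 1.60%), fibroblasts (at most 1.19%) and tumour cells (at most 0.0537%) had few such cells. Only 205, 1033, 1318 and 501 neutrophils of libraries 1 to 4 were deep enough to enter, of 661, 2878, 2783 and 1796. In library 4 some macrophages held all 10.

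**Figure D5:**
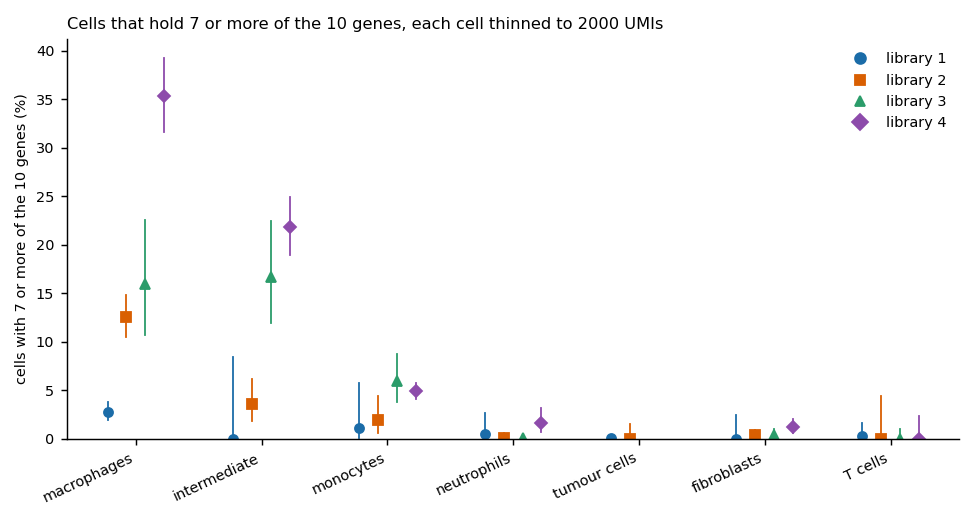
Share of cells (%) that hold at least 7 of the 10 genes when each cell is thinned to 2000 UMIs, by class and library, with exact 95% binomial intervals. The macrophages of library 4 (35.3%) stand highest, those of library 1 (2.71%) lowest among macrophages, and neutrophils, tumour cells, fibroblasts and T cells stay below 2%.

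Outside macrophages, the fibroblast genes of the set also varied by state. These splits, too, were set after the levels were seen. Lpl was higher in Dpt-positive fibroblasts without Lrrc15 at 2000 UMIs per cell, at 1633, 1667 and 998 CPM (618, 263 and 300 cells) in libraries 2 to 4, than in Lrrc15-positive tumour fibroblasts, at 459, 500 and 625 CPM (185, 20 and 24 cells). In library 1 the values rest on 3 UMIs in 23 Dpt-positive and 4 UMIs in 62 Lrrc15-positive cells, with overlapping intervals of 13.4 to 191 CPM and 8.79 to 82.6 CPM. Spp1 had the opposite order in each of the 4 libraries: Lrrc15-positive cells held 11064, 470.3, 875 and 1750.0 CPM and Dpt-positive cells 1913, 194, 576 and 573 CPM. In library 3 the intervals overlapped, at 609 to 1217 CPM (35 UMIs) against 513 to 645 CPM. Fibroblasts with neither gene held 8285, 1346, 2014 and 1122 CPM of Spp1. In the tumour cells of library 1, those with a UMI of Mki67 or Top2a, genes of dividing cells, held 3271 CPM of Spp1 and those without held 5069 CPM. Cd9 in neutrophils was close between cells with Retnlg (1158 CPM pooled) and without (1230.4 CPM).

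The partners of these genes were examined as 11 fixed lists with 74 genes, counted by the same 2-fold rule in each library, so the shares of all genes given above are their background. List genes were counted at any level: Ms4a4a, Apoc4, Pparg, Atp6v0d2 and Olr1 were each called in at least 1 comparison with less than 10 CPM in both classes. Of the 7 genes of Trem2 signalling, none was higher in macrophages than in monocytes, while 6 were higher than in tumour cells and all 7 than in fibroblasts. Against neutrophils 2 were higher (Ms4a4a and Ms4a6d) and 1 lower (Syk). The adaptor Tyrobp stood at 2190 CPM in macrophages and 3052 CPM in monocytes pooled, so the macrophage excess of Trem2 was not shared by its adaptor. Ms4a6d stood at 847 against 2348 CPM, the kinase Syk at 79.9 against 116 CPM, Inpp5d at 103 against 127 CPM, Hcst at 63.5 against 67.7 CPM, Plcg2 at 44.96 against 57.3 CPM and Ms4a4a at 9.83 against 31.8 CPM. Inpp5d and Hcst had no common order by library: macrophages were lower in libraries 1 and 4 and higher in libraries 2 and 3.

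Of the 7 apolipoproteins and receptors beside Apoe, none was higher or lower than in monocytes, 1 was higher than in tumour cells, and 1 was higher and 1 lower than in fibroblasts. Against neutrophils, Lrp1 was higher (188 against 31.5 CPM) and Sorl1 lower (27.0 against 421 CPM). The neighbouring apolipoprotein genes were low in macrophages, with Apoc1 at 2.33 CPM (27.6 CPM in monocytes), Apoc4 at 1.203 CPM and Apoc2 at 0.141 CPM. In fibroblasts Lrp1 stood at 489 CPM, and Vldlr stood at 0.778 CPM in macrophages.

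Of the 7 receptors of Spp1, the integrin chain Itga9 was higher in macrophages than in monocytes (42.8 against 3.28 CPM) and Itga4 lower (24.1 against 55.1 CPM). Against neutrophils 2 were higher and 1 lower, against tumour cells 2 higher and 1 lower, and against fibroblasts 1 higher. Cd44 stood at 248 CPM in macrophages, 569 CPM in monocytes and 856 CPM in neutrophils. Itgb1 (196 CPM), Itgb5 (125 CPM), Itgav (41.5 CPM) and Itgb3 (3.22 CPM) did not meet the rule against monocytes.

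None of the 8 partners of Lpl and fatty acid handling met the rule against monocytes. Against neutrophils 2 were higher, against tumour cells 2 higher and 1 lower, and against fibroblasts 1 higher and 1 lower. Plin2, which coats lipid droplets, stood at 332, 1143, 2098 and 2686 CPM in the macrophages of libraries 1 to 4 and at 501, 947, 2210 and 1758 CPM in the monocytes. It was thus lowest in library 1 in both classes. Gpihbp1, the anchor of Lpl on vessels, was at 470.1 CPM in endothelial cells and 0.884 CPM in macrophages, and Angptl4, an inhibitor of Lpl, at 394 CPM in fibroblasts. Fabp4 stood at 5054 CPM in endothelial cells and 67.1 CPM in macrophages, and Acsl1 at 31.3 CPM in macrophages.

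Of 9 genes of cholesterol efflux and the liver X receptor, Abca1, the cholesterol exporter that loads Apoe, was higher in macrophages than in monocytes, with 59.2, 335, 212 and 152 CPM against 23.6, 131, 78.2 and 38.3 CPM. None was lower. Against neutrophils 3 were higher, against tumour cells 6 and against fibroblasts 3. Npc2 (1613 CPM) and Soat1 (137 CPM) were the other leading genes of this list in macrophages and stood at 2652 and 226 CPM in monocytes.

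Of 13 lysosomal genes, Lgmn and Cd63 were higher in macrophages than in monocytes and none was lower, while 7 were higher than in neutrophils, 10 than in tumour cells and 8 than in fibroblasts. The protease Lgmn stood at 943, 3541, 3632 and 2861 CPM against 316, 1136, 1582 and 1240.5 CPM. Cd63 stood at 698, 706, 664 and 898 CPM against 216, 225, 273 and 239 CPM. The most abundant lysosomal genes in macrophages had the low library 1 value of Ctsd to differing degrees: Ctsb stood at 2092, 6672, 7308 and 9813 CPM, Ctsl at 805, 3621, 6091 and 8801 CPM and Psap at 2935, 4045, 3734 and 4745 CPM. Of the 4 MiT/TFE factors, which drive lysosomal genes, none met the rule against monocytes, 1 was higher than in neutrophils, 3 than in tumour cells and 2 than in fibroblasts. Mitf stood at 16.8, 37.3, 56.3 and 62.9 CPM in macrophages of libraries 1 to 4, and Tfe3, Tfec and Tfeb at 51.1, 31.03 and 17.6 CPM pooled.

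Of the 6 other tetraspanins, Tspan4 was higher in macrophages than in monocytes (72.4 against 18.6 CPM pooled). Against neutrophils 1 was higher and 2 lower, against tumour cells 2 higher and 1 lower, and against fibroblasts 1 higher and 2 lower. Cd81 stood at 366 CPM in the macrophages of library 1 and at 64.2, 24.0 and 28.2 CPM in those of libraries 2 to 4, like Cd9 highest in library 1. Cd53 (341 CPM), Cd37 (53.6 CPM), Cd151 (28.3 CPM) and Cd82 (19.3 CPM) did not meet the rule against monocytes.

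Of the 5 other scavenger receptors, none met the rule against monocytes, 2 were higher and 1 lower than in neutrophils, 4 were higher than in tumour cells and 3 than in fibroblasts. Pooled, Cd68 stood at 613 CPM in macrophages and 786 CPM in monocytes, and Msr1 at 341 and 428 CPM. Pooling weighs the libraries unequally, because macrophages were most numerous in library 1 and monocytes in library 4. By library, Cd68 stood at 340, 579, 797 and 1264 CPM in macrophages and 304, 376, 812 and 819 CPM in monocytes. Msr1 stood at 305, 245, 351 and 535 CPM against 204, 362, 384 and 441 CPM. Pooled, Stab1 stood at 265 and 85.8 CPM, Olr1 at 6.26 and 5.72 CPM and Marco at 0.0708 CPM. Of the 5 other galectin genes, none met the rule against monocytes, 1 was higher than in neutrophils, 1 higher and 1 lower than in tumour cells, and none differed by the rule from fibroblasts. Lgals1 stood at 2874 CPM in macrophages and 7642 CPM in tumour cells, Lgals3bp at 199 CPM, Lgals9 at 139 CPM, Lgals8 at 50.7 CPM and Lgals4 at 0.460 CPM in macrophages. The 3 state genes Arg1, Cd163 and H2-Ab1 did not meet the rule against monocytes in every library, and 2, 3 and 2 of them were higher than in neutrophils, tumour cells and fibroblasts. Arg1 and Cd163 are themselves markers of the macrophage gate.

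Likeness of levels across cell types was described by Pearson's r of log2(CPM + 10) over the 35 class and library pairs with at least 50 cells, which share libraries and free RNA and so carry no p. Among the 10 genes, Apoe and Trem2 were most alike (r = 0.96), followed by Trem2 with Gpnmb (0.77) and Trem2 with Lgals3 (0.75), and Trem2 was least like Cd9 (-0.38). Outside the set, the genes most like Trem2 were C3ar1 (0.95), Ccl12 (0.94) and Siglec1 (0.94), and those most like Apoe were Ccl12 (0.93), C3ar1 (0.91) and Msr1 (0.91). Lpl was most like the fibroblast genes Ogn (0.91), Ccl11 (0.90) and Fbn1 (0.90), and Cd36 most like Cd93 (0.89), Parvb (0.85) and Ednrb (0.84). Gpnmb was most like Cdk20 (0.91), Slc7a8 (0.89) and Folr2 (0.89), and Ctsd most like Fgd4 (0.89), Hal (0.87) and F7 (0.87). Lgals3 was most like Ctsc (0.87), Rnh1 (0.86) and Ctss (0.83), and Cd9 most like Rnf11 (0.85), Lcn2 (0.82) and Upp1 (0.75). Fabp5 was most like its related gene Gm6166 (0.94), then Stom (0.79) and Car13 (0.74). Spp1 had no close match, with Agpat2 (0.73), Itgb5 (0.66) and S1pr2 (0.66) the nearest.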

How the data were processed

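Single cells of 4 tumour samples were profiled on the 10x Genomics platform. The authors deposited 1 matrix of raw UMI counts made with Cell Ranger, not scaled per cell. The methods name version 3.0.2, the matrix header 6.1.2 and the submitters' processing notes 2.1.1 and mm10. The 4 barcode suffixes were kept apart as libraries. Every value column was mapped, as pooled, and authors' cell annotation was not used here.

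From the counts, barcodes with at least 300 genes and at most 15% mitochondrial UMIs were kept. Each class score was the mean over its markers of UMIs per 10000, scaled by the 99th percentile among cells with a UMI and capped at 1. A cell was gated when its best score was at least 0.05 and 1.5 times the next. The 3 dendritic lists were merged. These limits were set after levels were seen. Doublets were not called; cells in the highest 5% of UMIs were left out as an alternative.

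UMIs were summed per class and library and given as CPM. Classes with at least 20 cells in a library were compared. A gene was called when its CPM ratio was at least 2 in each such library; at 0 UMIs a floor of 3 UMIs per class and library was used, and no ratio was given with both sides at or under 3. A gene that lacked a ratio in a compared library counted as not called. With the libraries not linked to samples, no test was run. Intervals (exact Poisson and Clopper-Pearson, 95%) cover counting error only. Cells were thinned without replacement to 1000, 2000 or 4000 UMIs (seed 1). At 1000 UMIs, 108, 88, 33 and 29 macrophages and 13, 2, 24 and 5 T cells of libraries 1 to 4 were too shallow.

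The 10 genes, the lists and the comparisons were chosen with earlier results of these data known. All 10 genes were named, the 3 genes of each list with the highest macrophage level, all genes of lists under 8 genes, and for each of the 10 the 3 genes with the highest r. Lgmn, Cd63, Gpihbp1 and Angptl4 were named after their values were seen. A gene of the apolipoprotein list is not reported here. The steps were tested on simulated macrophages and monocytes (5596 genes, 300 cells per group and library): 99% of 4-fold genes, 2% of 2-fold genes and 0% of unchanged genes were called, and the gate recovered 99% of simulated macrophages and 80.5% in the class with the lowest recovery. The simulated cells were drawn from summed profiles of cells already gated, without doublets. That recovery therefore does not measure errors of the gate on real cells. Within a simulated group, cells differed by depth and counting alone, and only genes above a floor higher than 10 CPM were run. The shares of genes called therefore do not measure errors of the 2-fold rule on real cells. Some real groups were smaller than the simulated ones, with 105 monocytes in library 1 and 234 macrophages in library 3. Alternatives were other cell filters, looser (1.2) and stricter (2) gates, other depths and limits, 10 CPM added to both sides, pooling or equal weights, and leaving out each library. A smallest score of 0.1 and a gate without Arg1, Mrc1 and Cd163 were added after seeing the data. Python 3.11.15, numpy 2.4.6, scipy 1.17.1, pandas 2.3.3 and matplotlib 3.10.9 were used. Coordinates came from GENCODE vM21 (GRCm38) and promoters from RefSeq (GRCm38.p6).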

Additional observations from a re-analysis of the deposited data

Results flagged for a closer look

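The 931 barcodes removed by the limits on genes and mitochondrial UMIs, which no comparison uses, still held the 10 genes: 4557 of their 1022990 UMIs, or 4455 CPM (4326 to 4586), against 7245 CPM in the kept cells. There are no control libraries without cells to set this level against. Apoe (1288 CPM) and Spp1 (1257 CPM) made up most of it, and Trem2 stood at 51.8 CPM and Gpnmb at 10.8 CPM.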

How the results depend on the processing

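Of 101 counts of genes or pairs recomputed under an alternative, 81 stayed within 1.5 times the reported count and 20 did not. The counts of genes higher in macrophages than in monocytes, neutrophils, tumour cells and fibroblasts were 2, 3, 5 and 5 as reported. With a ratio limit of 1.5 they were 7, 6, 7 and 5, with the libraries pooled 3, 6, 8 and 8, and with 10 CPM added to both sides 1, 2, 3 and 4. Without 1 library at a time they ranged from 2 to 3, from 3 to 7, from 5 to 8 and from 5 to 7, with the highest of the last 3 without library 1. Shares of all genes were computed for only some of these settings and are given above. The other counts have no background to be read against. The count of genes highest in macrophages was 4, and 3 to 6 without 1 library. The count of genes higher in Trem2-positive macrophages was 2, and 2 to 4 without 1 library, 0 with a limit of 1.5, 4 at 4000 UMIs and 1 with a smallest score of 0.1. The count of pairs was 1, and 1 to 3 without 1 library, 0 with a limit of 1.5, 2 at 1000 UMIs and 0 at 4000 UMIs. The gate without Arg1, Mrc1 and Cd163 gave 1 gene against monocytes and 2 pairs. The cause of these moves was not tested beyond their construction. Of 560 ratios of single genes, 512 stayed within 1.5 times, 47 did not and 1 was counted as turned in direction. A turn was counted only where the reported ratio was at least 2-fold in either direction, so turns of smaller ratios are among the others. The 1 counted was Gpnmb in macrophages against tumour cells, at 1.97 on the log2 scale as reported, -0.70 without library 2 and 4.64 without library 1. Spp1 against tumour cells, at -1.28 in library 1 and 0.266 in library 2, was a smaller ratio whose direction depended on the library. The limits of 500 genes and of 5% mitochondrial UMIs moved no count. No paired analysis was possible because the libraries are not linked to samples and no test was run. In the macrophages of library 1, Lpl, Cd36 and Gpnmb rest on 132, 114 and 25 UMIs.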
